A study of Mus musculus with 15 samples.

Results

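The genes described are the 7 that encode histone methyltransferases with activity on lysine 4 of histone H3 (H3K4) and that were listed by symbol: Setd1a, Setd1b, Kmt2a, Kmt2b, Kmt2c, Kmt2d and Smyd3. They were found by matching those symbols to the Ensembl identifiers of a table of normalised counts, and all 7 were present among 36118 identifiers. The values come from RNA sequencing of whole testes of C57/BL6 mice, the genotype shared by every sample. The groups were MTX, HMS-I1, AA, TSA and Control, with 3 libraries each, and the title of the series names modifications of histones H3 and H4 and chromosome organisation in prophase I of meiosis. The labels spell out no treatment name and give no dose, duration, age or route. The HMS-I1 libraries are numbered by title as 3 replicates, but their treatment labels differ (HMS-I1, HMS-I2, HMS-I3), and they were grouped by title. No label says that replicates are different animals, and the p-values therefore describe the spread among these libraries alone, part or all of which may be technical.

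Methylation of H3K4 marks promoters (as trimethylation) and enhancers (as monomethylation), and in meiosis it also marks the sites where recombination starts. Most of it is laid down by COMPASS complexes, in which a large SET domain enzyme is joined by shared core subunits such as Wdr5 and Ash2l and by subunits that differ between complexes. Setd1a and Setd1b are the enzymes of the SET1 complexes, Kmt2a and Kmt2b (also called MLL1 and MLL2) act with menin at HOX genes and at bivalent promoters, and Kmt2c and Kmt2d (MLL3 and MLL4) are the main monomethyltransferases of enhancers. Smyd3 is a smaller SET and MYND domain enzyme, described both as an H3K4 methyltransferase and as a methyltransferase of proteins outside chromatin. Within spermatogenesis, Kmt2b is known to be needed in spermatogonia.

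Several of these complexes find promoters through CXXC domains that bind unmethylated CG pairs, either in the enzyme itself (Kmt2a and Kmt2b) or in a subunit (Cxxc1 of the SET1 complexes). The 250 bases before the start of the genes' own transcripts are shown for that reason, with every CG pair in capitals. Sequences were taken from RefSeq annotation of GRCm38.p6, which held 4 of the 7 genes: Kmt2a, Kmt2c, Kmt2d and Setd1a. The motif counted was CG, which reads the same on both strands. Setd1a (chr7:127777139-127777388, plus strand), Kmt2a (chr9:44881290-44881539, minus strand) and Kmt2c (chr5:25498784-25499033, minus strand) are printed 5′ to 3′ on the strand of the gene.
Setd1a: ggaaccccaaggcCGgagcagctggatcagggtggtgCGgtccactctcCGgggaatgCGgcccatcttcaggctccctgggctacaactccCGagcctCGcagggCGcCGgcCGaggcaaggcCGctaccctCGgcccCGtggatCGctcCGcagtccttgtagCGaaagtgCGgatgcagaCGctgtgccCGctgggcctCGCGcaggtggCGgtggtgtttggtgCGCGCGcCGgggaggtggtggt
Kmt2a: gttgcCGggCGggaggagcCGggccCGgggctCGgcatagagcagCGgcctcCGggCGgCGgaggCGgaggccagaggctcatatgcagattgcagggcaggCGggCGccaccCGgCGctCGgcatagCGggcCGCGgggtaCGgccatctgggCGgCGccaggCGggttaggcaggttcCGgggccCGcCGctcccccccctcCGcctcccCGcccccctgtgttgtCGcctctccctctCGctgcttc
Kmt2c: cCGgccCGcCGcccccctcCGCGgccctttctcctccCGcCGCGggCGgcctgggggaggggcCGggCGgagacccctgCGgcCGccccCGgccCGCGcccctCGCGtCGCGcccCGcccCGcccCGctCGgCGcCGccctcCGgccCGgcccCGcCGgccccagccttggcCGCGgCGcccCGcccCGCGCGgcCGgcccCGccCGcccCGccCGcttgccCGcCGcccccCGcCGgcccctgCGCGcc
The Setd1a promoter held 25 CG pairs, and 10.7% of 32817 annotated promoters of the same length held as many or more. Kmt2a had 29 pairs (6.78% of promoters), Kmt2d had 26 (9.6%) and Kmt2c had 48 (0.186%), against a median of 6 over all promoters. By this count all 4 promoters were CG-rich, Kmt2c the most.

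The 15 libraries fell into 2 sets that cut across the groups. Replicate 1 of each treatment and Control replicates 1 and 2 (6 libraries, called histone-rich here) had a mean log2 value of 7.79 to 8.82 over 60 histone genes, and 1.08% to 1.40% of their normalised counts lay in mitochondrial genes. The other 9 libraries (called mitochondria-rich) had 2.95 to 3.86 and 3.54% to 13.7%. Each treatment therefore held 2 mitochondria-rich libraries and 1 histone-rich library, and Control held 1 and 2. Markers of testis cell types were present in all libraries, while epididymal markers were near 0, with Lcn5 and Lcn8 at 0 throughout. Column sums ran between 2.75e+07 and 4.06e+07, but the sequencing depth is unknown, because whole reads could not be recovered from the scaled values. Within groups, libraries correlated at 0.829 to 0.966 across genes, and 0 pairs were identical.

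All 7 methyltransferase genes were above 0 in all 15 libraries and passed the filter on low values (a mean of at least 10), as did 17896 genes in all. Per kb of the longest coding transcript, the mean normalised count was 139 for Setd1a, 120.0 for Kmt2b, 91.2 for Kmt2c, 57.4 for Setd1b, 49.8 for Kmt2d, 37.4 for Kmt2a and 29.7 for Smyd3. Setd1a was the highest of the 7 on this scale in 8 libraries, Kmt2b in 5 and Kmt2c in 2. Kmt2a was the lowest in 9 libraries and Smyd3 in 6. The highest and the lowest place were thus each shared between genes: in the histone-rich libraries the median per kb was 97.8 for Kmt2b, 96.2 for Kmt2c and 82.6 for Setd1a.

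**Figure D1:**
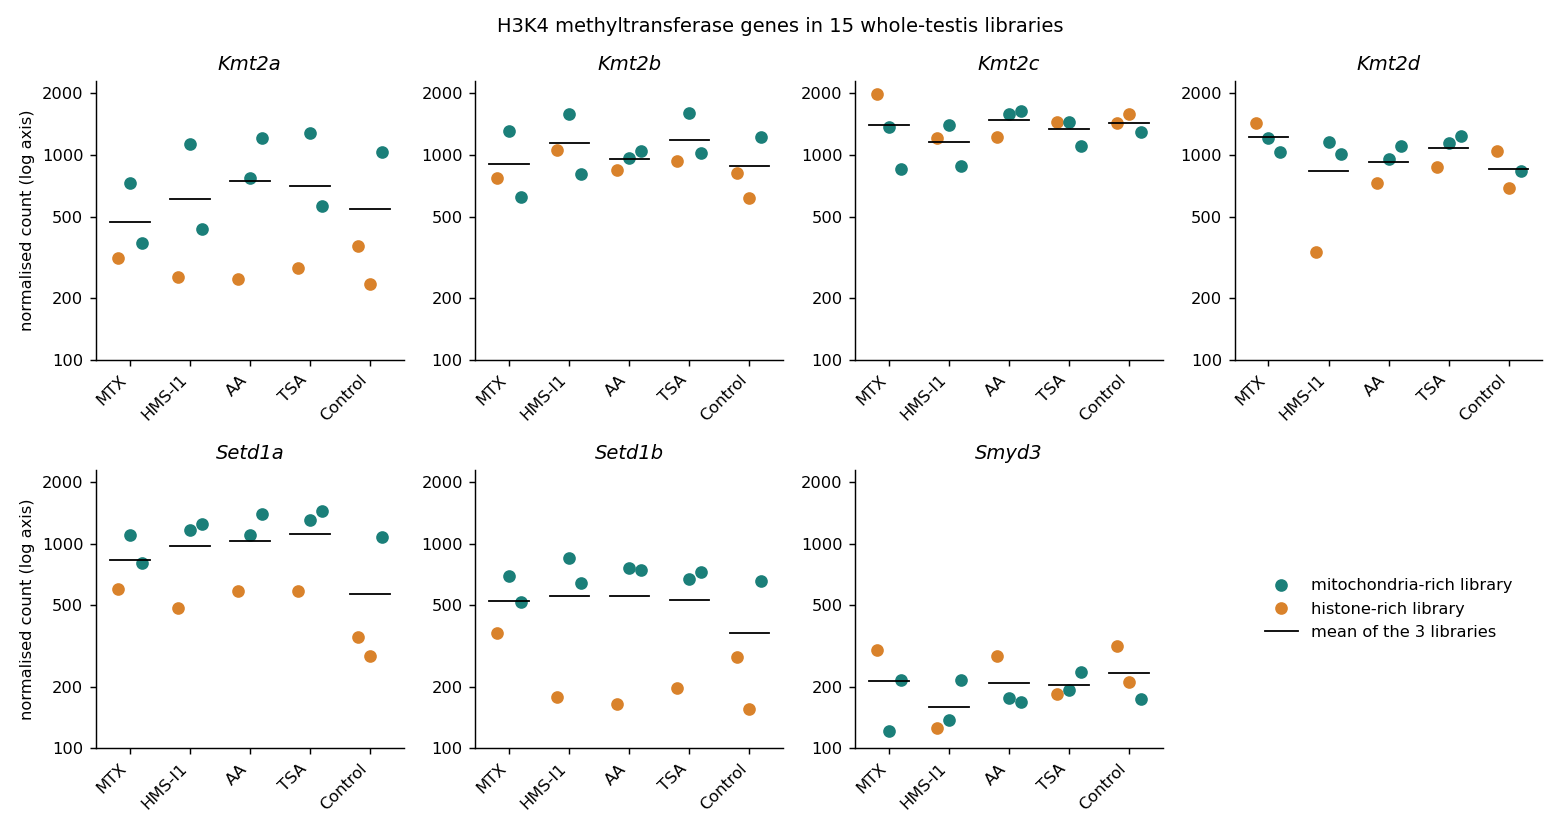
Normalised count (log axis) of each of the 7 genes in the 3 libraries of MTX, HMS-I1, AA, TSA and Control, with replicates 1 to 3 from left to right in each group and a line at the group mean. Colours mark the library sets: for Setd1a, Setd1b and Kmt2a every mitochondria-rich library lies above every histone-rich one, while for the other 4 genes the colours mix.

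The question put to each treatment was whether these genes differed from Control. None of the 7 did by limma's moderated test: 0 passed an adjusted p of 0.05 in MTX, HMS-I1, AA or TSA, and 0 had an unadjusted p under 0.05. The share of all tested genes past the adjusted threshold was 0% in each of the 4 comparisons. At an unadjusted p under 0.05 the share was 0.548% under MTX, 0.408% under HMS-I1, 0.799% under AA and 5.74% under TSA. Under MTX, HMS-I1 and AA this was far less than the proportion of 0.05 that evenly spread p-values would give. With so few genes reached there, 0 of the 7 says little about these genes. No gene of the 7 had its 3 treated libraries clear of the 3 Control libraries, a pattern met by 2.47% of tested genes in MTX, 2.7% in HMS-I1, 5.04% in AA and 4.54% in TSA. For Setd1a, Setd1b and Kmt2a this followed from the library sets, which did not overlap in these genes while every group held both. Overlap of these genes with Control, here and below, therefore tells nothing about treatment. The 4 comparisons share the Control libraries, so their values are not independent of each other.

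Among the SET1 enzymes, Setd1a had the lowest Control mean relative to the treatments. It measured 601, 1102 and 803 normalised counts in MTX libraries, 485, 1169 and 1254 in HMS-I1 libraries, 590.3, 1101 and 1390.2 in AA libraries and 587, 1309 and 1438 in TSA libraries, against 349, 283 and 1073 in Control libraries (replicates 1, 2 and 3). In each treatment the replicate 1 library was the low one, and in Control it was replicate 3 that stood high, inside the range of the treated libraries. Setd1a averaged 836 ± 252 in MTX, 969.6 ± 422 in HMS-I1, 1027 ± 405 in AA and 1111 ± 459 in TSA, and 569 ± 438 in Control (SD, n = 3 each). The log2 difference from Control was 0.77 under MTX, 0.91 under HMS-I1, 1.03 under AA and 1.12 under TSA, with an SE of 0.55 for each. None passed the limma test: the adjusted p was 0.882 for TSA and 1.00 for the other treatments, and the 95% confidence interval for TSA ran from −0.07 to 2.32. Unadjusted, p was 0.184 under MTX, 0.122 under HMS-I1, 0.0852 under AA and 0.0623 under TSA. The unadjusted p fell below 0.05 in other limma fits, among them the following with an adjusted p above 0.05: with the library set as a term it was 0.0451 under HMS-I1, 0.0179 under AA and 0.00804 under TSA, and for TSA it was 0.0442 with libraries rescaled to equal sums and 0.0480 after quantile normalisation.

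The Control mean of Setd1a depended on which libraries entered it. Without Control replicate 3 the limma log2 differences were 1.36 under MTX, 1.503 under HMS-I1, 1.62 under AA and 1.71 under TSA. Without Control replicate 2 they were 0.40, 0.54, 0.66 and 0.75, in the same order of treatments. Set against Control libraries of their own set, the mitochondria-rich libraries differed by −0.19 in MTX, 0.17 in HMS-I1, 0.20 in AA and 0.35 in TSA, and the histone-rich ones by 0.93, 0.62, 0.91 and 0.90. With the library set as a term in the model, the differences were 0.37, 0.51, 0.63 and 0.72, and the adjusted p for TSA was 0.590. In the histone-rich set all 4 treated libraries lay above both Control libraries, by 0.84 on the log2 scale on average. Setd1a alone of the 7 genes showed this, a pattern looked for after its values were seen, and 3.86% of all tested genes showed it as well. Multiplying a whole library by a factor cannot change the ratio of Setd1a to Kmt2c within it. In the histone-rich set it was 0.303 in MTX, 0.401 in HMS-I1, 0.484 in AA and 0.405 in TSA, against 0.245 and 0.179 in Control. The ratio of Setd1a to Kmt2a was also higher in all 4 treated libraries than in both Control libraries. The ratio of Setd1a to Setd1b was not, at 1.641 in MTX, below 1.808 in Control replicate 2. The separation thus depended on the gene in the denominator. The share of other gene pairs with such a pattern was not counted, so these ratios do not test it.

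Setd1b, the paralogue of Setd1a in the SET1 complexes, measured 366, 695 and 521 normalised counts in MTX libraries, 178, 856 and 641 in HMS-I1 libraries, 164, 758 and 748 in AA libraries and 198, 671 and 729.7 in TSA libraries, against 278, 157 and 659 in Control libraries. As for Setd1a, replicate 1 of each treatment and Control replicates 1 and 2 were low, and each treatment overlapped Control. Its log2 difference from Control was 0.73 under MTX, 0.59 under HMS-I1, 0.56 under AA and 0.58 under TSA (SE 0.76 each), with an adjusted p in limma of 0.886 for TSA and 1.00 for the others. With the library set as a term the differences were 0.17, 0.025, 0.0026 and 0.022 in the same order. Without Control replicate 2 they were 0.25, 0.11, 0.083 and 0.10, and without Control replicate 3 they were 1.28, 1.14, 1.12 and 1.13.

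Kmt2a, which maintains HOX gene expression, had the largest coefficient of variation of the 7 genes in each group. It measured 315, 732 and 372 normalised counts in MTX libraries, 253, 1135 and 436 in HMS-I1 libraries, 248, 769 and 1215 in AA libraries and 281, 1286 and 561 in TSA libraries, against 359, 235 and 1033 in Control libraries. The 3 Control libraries alone ran between 235 and 1033, a coefficient of variation of 79.2%, and overlapped every treatment. The log2 difference from Control was −0.01 under MTX, 0.17 under HMS-I1, 0.47 under AA and 0.41 under TSA (SE 0.76 each). Within the mitochondria-rich set it was −0.98, −0.55, −0.096 and −0.28 in the same order, and within the histone-rich set 0.12, −0.20, −0.23 and −0.045. Against Control libraries of the same set, Kmt2a was therefore lower in HMS-I1, AA and TSA in both sets, and in MTX the sign differed between the sets.

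Kmt2b, its closest relative, was steadier. It measured 768, 1315 and 625 normalised counts in MTX libraries, 1053, 1591 and 808 in HMS-I1 libraries, 842, 967 and 1052 in AA libraries and 935, 1613 and 1019.6 in TSA libraries, against 816, 619.99 and 1220.4 in Control libraries. Every group held a library of 1052 or more, and all treatments overlapped Control. The log2 difference was 0.01 under MTX, 0.38 under HMS-I1, 0.16 under AA and 0.44 under TSA (SE 0.35 each).

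Kmt2c, an enhancer monomethyltransferase, measured 1987, 1368 and 858 normalised counts in MTX libraries, 1210.5, 1396 and 886 in HMS-I1 libraries, 1220.5, 1589 and 1645 in AA libraries and 1449.8, 1449.5 and 1110.4 in TSA libraries, against 1428, 1585 and 1297 in Control libraries. MTX held both the highest and the lowest library of the 15, and Control lay inside that range. Its log2 difference from Control lay between −0.32 for HMS-I1 and 0.04 for AA (SE 0.29 each).

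Kmt2d, the other enhancer monomethyltransferase, measured 1439.9, 1208 and 1031 normalised counts in MTX libraries, 336, 1159.5 and 1018 in HMS-I1 libraries, 727, 956 and 1103 in AA libraries and 874, 1147 and 1237 in TSA libraries, against 1046, 691 and 834 in Control libraries. HMS-I1 replicate 1 stood far below the other libraries, and all 3 MTX libraries were at 1031 or more, a level that every other group had libraries below. The log2 difference from Control was 0.52 under MTX, −0.20 under HMS-I1, 0.12 under AA and 0.35 under TSA (SE 0.39 each).

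Smyd3 measured 304, 122 and 216 normalised counts in MTX libraries, 126, 138 and 215 in HMS-I1 libraries, 282, 176 and 169 in AA libraries and 185, 193 and 237 in TSA libraries, against 317, 212 and 174 in Control libraries. Its mean was highest in Control (234 ± 73.7, SD, n = 3), but every treatment overlapped Control. The log2 difference was −0.18 under MTX, −0.55 under HMS-I1, −0.16 under AA and −0.16 under TSA (SE 0.37 each). For Kmt2a, Kmt2b, Kmt2c, Kmt2d and Smyd3 the adjusted p in limma was 0.886 to 0.938 for TSA and 1.00 for the other treatments.

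**Figure D2:**
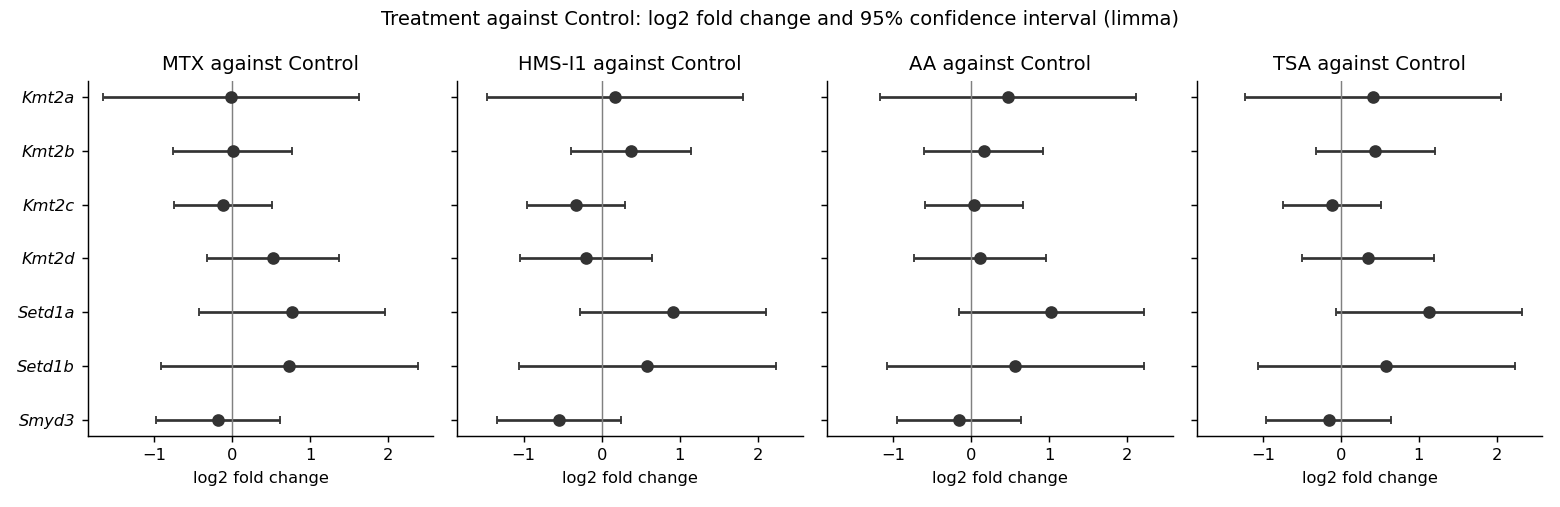
Log2 fold change of the 7 genes in MTX, HMS-I1, AA and TSA against Control (points) with the 95% confidence interval from the limma fit over 15 libraries (bars). Every interval includes 0, and Setd1a lies farthest to the right in each panel, at 0.77, 0.91, 1.03 and 1.12.

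The median log2 difference over the 7 genes was 0.01 under MTX, 0.17 under HMS-I1, 0.16 under AA and 0.41 under TSA, beside −0.01, −0.02, −0.02 and 0.01 over all genes tested. The TSA median is the value of Kmt2a, which was −0.28 within the mitochondria-rich and −0.045 within the histone-rich libraries. Each treatment held more mitochondria-rich libraries than Control, and the 7 genes had a median difference of 0.46 between the sets. These medians therefore do not show a rise of the family under treatment. A test of any difference among the 5 groups called 0 of the 7 and 0% of all genes at an adjusted p of 0.05. Unadjusted, it reached 0 of the 7 and 1.29% of all genes, and the smallest p among the 7 was 0.313, for Setd1a. The group means put TSA first for Setd1a and Kmt2b, AA for Kmt2a and Kmt2c, HMS-I1 for Setd1b, MTX for Kmt2d and Control for Smyd3. No neighbours in these orders differed beyond their spread: beside the comparisons with Control, limma called 0 of the 7 genes and 0% of all genes in each of the 6 pairs of treatments, and 0 of the 7 had an unadjusted p under 0.05, which 109 to 894 genes had. The smallest p among the 7 was 0.0870, for Kmt2d, which was lower in HMS-I1 (838 ± 440) than in MTX (1226 ± 205; log2 difference −0.72, SD, n = 3 each, limma over all genes, adjusted p 1.00). The one setting that made calls among the 7 gave each library a quality weight in limma. It called Kmt2a, Setd1a, Setd1b and Smyd3 in AA and Setd1a in TSA. Of all 17896 genes tested, it called 6645 in AA and 4234 in TSA, so calls were common there. AA replicate 2 was weighted at 38.8 and the other 14 libraries between 0.230 and 2.92.

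For Setd1b, Kmt2a and Setd1a the difference between the library sets was larger than any treatment's difference from Control. Setd1b ran between 521 and 856 normalised counts (median 695) in the mitochondria-rich libraries, against 157 to 366 (median 188) in the histone-rich ones. Setd1a ran between 803 and 1438 (median 1169), against 283 to 601 (median 536), and Kmt2a between 372 and 1286 (median 769), against 235 to 359 (median 267). These 3 genes did not overlap between the sets and were higher in the mitochondria-rich libraries of all 5 groups. The log2 difference was 1.70 for Setd1b, 1.46 for Kmt2a and 1.33 for Setd1a, above that of 96.7%, 95.2% and 94.1% of tested genes. Of all genes tested, 12% lay above without overlap in the same direction, and 12.8% lay below. No test is given, because the sets were told apart by expression values of these same libraries.

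The other 4 overlapped between the sets, and each had at least 1 treatment with a larger difference from Control. Kmt2d differed by 0.46 and Kmt2b by 0.40 on the log2 scale, and Kmt2c by −0.21 and Smyd3 by −0.34. Kmt2b had the same sign in all 5 groups, while Kmt2c was higher in the mitochondria-rich libraries in AA alone, Smyd3 in HMS-I1 and TSA, and Kmt2d in HMS-I1, AA and TSA. The ratio of Setd1a to Kmt2c was 0.693 to 1.42 in the mitochondria-rich libraries, against 0.179 to 0.484 in the histone-rich ones. Setd1b to Kmt2c was 0.454 to 0.724, against 0.0988 to 0.195, and Kmt2a to Kmt2b was 0.540 to 1.15, against 0.240 to 0.440. These ratios did not overlap, nor did Kmt2a to Kmt2c (0.434 to 0.887, against 0.148 to 0.251). Some members thus differed unequally between the sets, whatever the factor by which a whole library is multiplied. Setd1a to Kmt2a, Setd1b to Kmt2a, Setd1a to Setd1b and Kmt2c to Kmt2d overlapped. The share of other gene pairs without overlap was not counted.

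**Figure D3:**
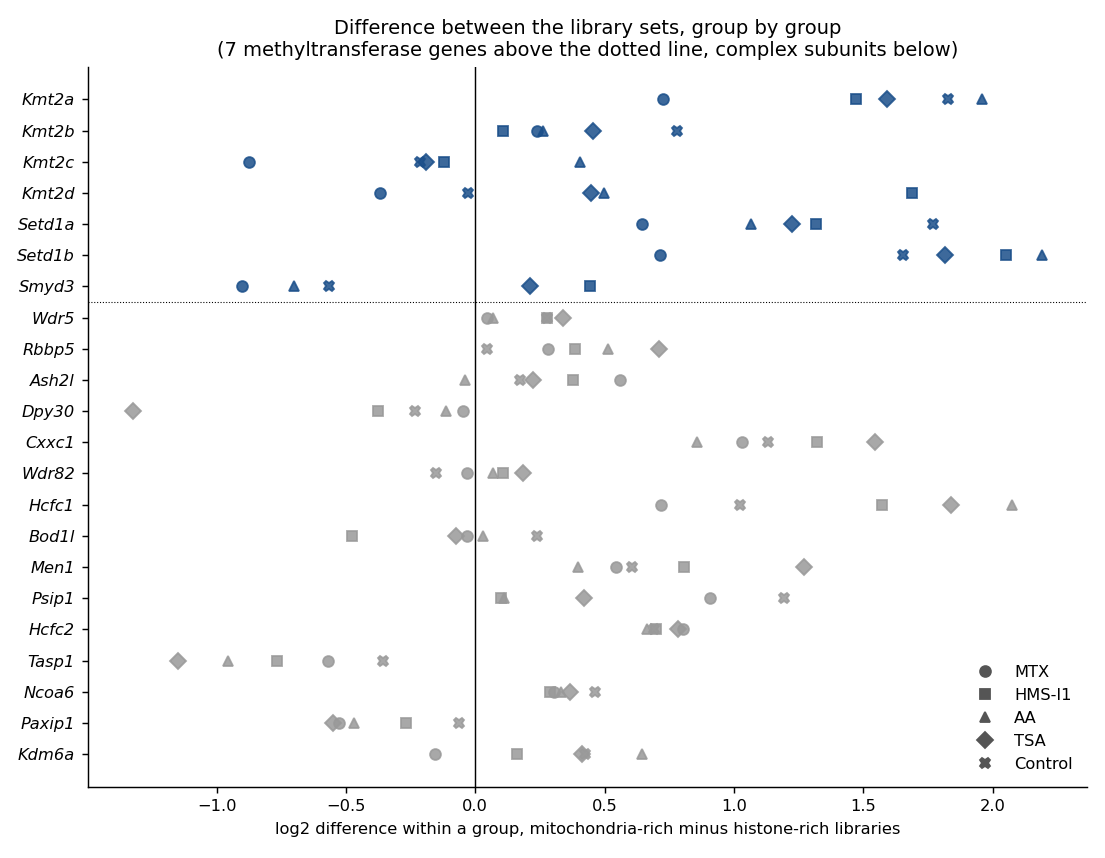
Log2 difference between mitochondria-rich and histone-rich libraries within each group (symbols: MTX, HMS-I1, AA, TSA, Control) for the 7 methyltransferase genes (blue, top) and subunits of their complexes (grey); Pagr1a, at 0 in 5 libraries, is not drawn. Setd1a, Setd1b, Kmt2a and Kmt2b lie right of 0 in all groups, as do Wdr5, Rbbp5, Cxxc1, Hcfc1, Men1, Psip1, Hcfc2 and Ncoa6. Dpy30, Tasp1 and Paxip1 lie left of 0 in all.

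Per kb of transcript, the SET1 enzymes took a larger share of the 7-gene sum in the mitochondria-rich libraries. Setd1a made up 25.5% to 36.5% of it there (median 28.5%), against 13.5% to 23.7% (median 20.1%) in the histone-rich libraries. Setd1b made up 10.4% to 14.4%, against 4.84% to 8.38%. The share of Kmt2c moved the other way, 11.2% to 17.8% against 21.3% to 33.1%, and these 3 shares did not overlap between the sets. Shares of one sum depend on each other, and the level of Kmt2c per kb did overlap (57.3 to 110 against 80.9 to 133). The shares of Kmt2a, Kmt2b, Kmt2d and Smyd3 overlapped. The 7-gene sum per kb was 420 to 729 in the mitochondria-rich libraries (median 618), against 320 to 493 (median 390.4).

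**Figure D4:**
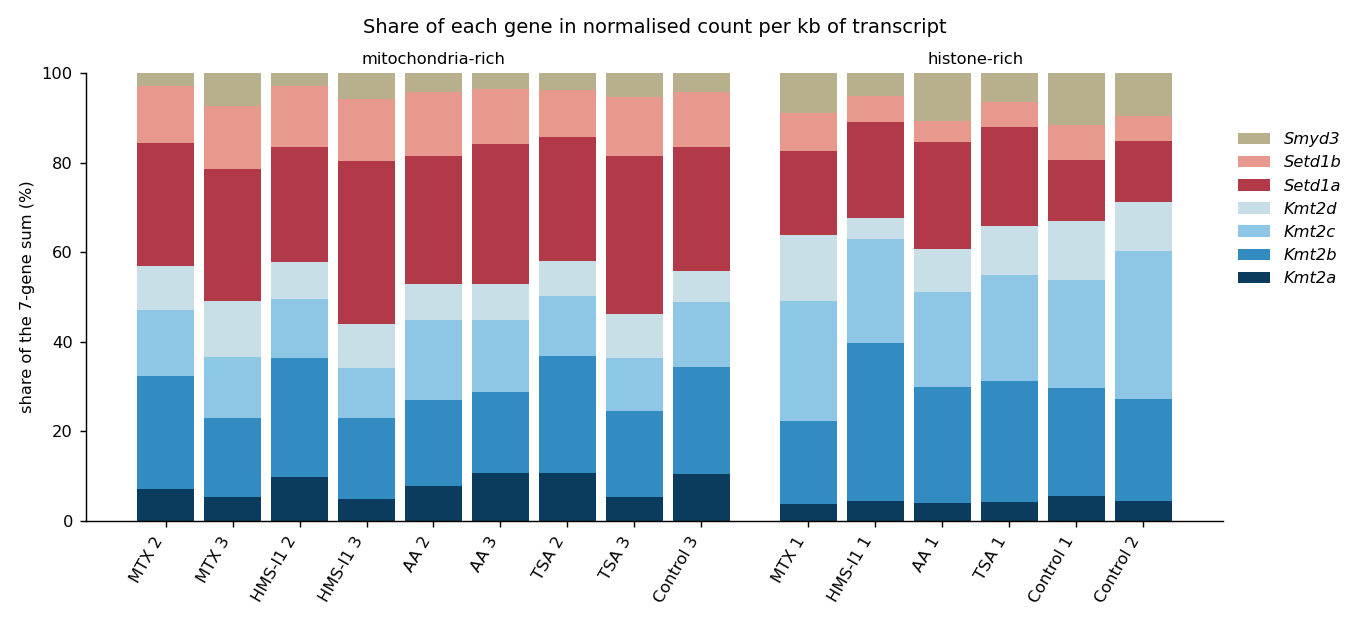
Share of each of the 7 genes in their summed normalised count per kb of longest coding transcript (stacked bars, in %), with the 9 mitochondria-rich libraries on the left and the 6 histone-rich libraries on the right. Setd1a and Setd1b (reds) fill more of each bar on the left, and Kmt2c (middle blue) more on the right.

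Other measures moved with the sets. The summed level of 8 spermatogonial markers was 4273 to 6605 normalised counts in the mitochondria-rich libraries, against 2697 to 3072 in the histone-rich ones, with 6 of 8 markers higher. Sertoli markers were higher in 8 of 8 (sum 32932 to 57227, against 21569 to 24135), and myoid markers in 5 of 5 (5747 to 8963, against 2461 to 3825). Markers of elongating spermatids were higher in 1 of 6 (185570.0 to 406182, against 606060.0 to 887415), and those of spermatocytes in 6 of 8, with overlapping sums. None of these lists had a marker at 0 in every library. The commonest nonzero value of a library was 0.453 to 0.917 against 1.98 to 2.62, and in every library its double was also among the commonest values. Whether it stands for a single read, which would make the histone-rich libraries shallower, was not tested. The part of these measures in the difference of the methyltransferase genes was not tested, and in whole testis fewer cells of a type and less RNA per cell cannot be told apart. Of the 7 genes, 5 have a longest coding transcript of 8000 bases or more, and over all tested genes of that length the median set difference was −0.23, with 4.73% above 1.

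The partners of these enzymes were read from lists chosen with earlier results of these data known. In the 4 comparisons with Control, 0 genes of these lists passed the limma test at an adjusted p of 0.05. Of the 4 core subunits, which all COMPASS complexes share, Dpy30 had the smallest p over the 5 groups. It averaged 2259 ± 1307 normalised counts in TSA and 3574 ± 611 in Control (SD, n = 3 each; log2 difference −0.80, limma adjusted p 0.848), and TSA replicates 2 and 3, at 1355 and 1665, were its 2 lowest libraries. Wdr5, the subunit that docks the SET domain enzymes, was next, at 1981 ± 472 in TSA and 1507 ± 171 in Control. Between the sets, Rbbp5 was higher in the mitochondria-rich libraries without overlap (0.39), and Wdr5, Ash2l and Dpy30 overlapped. Lack of overlap was common among all genes tested, at 12% above and 12.8% below. It is therefore not read as a result about this list or those that follow.

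Cxxc1 is the SET1 subunit that binds unmethylated CG pairs. It and the host cell factor Hcfc1 were higher in the mitochondria-rich libraries without overlap (by 1.16 and 1.43), as were 12% of all genes tested. Wdr82 (0.06) and Bod1l (−0.11) were not. Wdr82 and Bod1l had the smallest p of the list in the test over the 5 groups, with log2 differences from Control of 0.31 for Wdr82 in TSA and −0.48 for Bod1l in HMS-I1. In the Kmt2a and Kmt2b complexes, menin (Men1, 0.74) and Hcfc2 (0.70) were higher without overlap and Psip1 overlapped (0.49). Tasp1, the protease that cleaves the Kmt2a and Kmt2b proteins, was lower without overlap (−0.78), and in TSA it differed from Control by −0.61. None of the 4 subunits listed for Kmt2c and Kmt2d was free of overlap: Ncoa6 differed by 0.33, Paxip1 by −0.41, Kdm6a by 0.32 and Pagr1a, at 0 in 5 libraries and at most 174, by 0.19.

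Beyond the complexes, Prdm9, the meiosis-specific H3K4 methyltransferase of recombination hotspots, overlapped between the sets (−0.40), as did Setd7, Ash1l, Smyd1 and Smyd2. All 6 H3K4 demethylases overlapped too, 5 of them higher in the mitochondria-rich libraries, with Kdm5c at 0.63 and Kdm1a at 0.38. Of the 9 readers of H3K4 methylation, Taf3, which binds the trimethylated promoter mark, was higher by 1.16 and Zcwpw1, which reads the marks made by Prdm9, by 0.40, both without overlap. Of the HOX and TALE genes known to depend on Kmt2a, Hoxa5 and Hoxa10 failed the filter. Among the 5 that passed, Hoxc8 (1.79) and Pbx3 (1.18) were higher without overlap. Over all genes tested, 12% lay above without overlap and 12.8% below. Hoxc8 was low throughout, at 39.0 to 96.6 normalised counts in the mitochondria-rich libraries and 4.72 to 28.1 in the histone-rich ones. Hoxa9 averaged 6.34 ± 5.29 in TSA and 26.7 ± 19.1 in Control (SD, n = 3 each; log2 difference −2.06, limma adjusted p 0.871).

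The mitochondria-rich replicates of a treatment also differed from each other in these genes. In MTX, HMS-I1 and TSA alike, replicate 3 was below replicate 2 for Kmt2a (by −0.98, −1.38 and −1.19 on the log2 scale), Kmt2b (−1.07, −0.98 and −0.66) and Kmt2c (−0.67, −0.66 and −0.38). Smyd3 went the other way, with 0.82, 0.64 and 0.29. In AA the signs of these 4 genes were opposite, at 0.66, 0.12, 0.05 and −0.05. Setd1a, Setd1b and Kmt2d had mixed signs. Being lower in replicate 3 in all of MTX, HMS-I1 and TSA was common, at 33.5% of tested genes, and being higher was met by 36.8%, so the shared sign by itself is near the background.

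**Figure D5:**
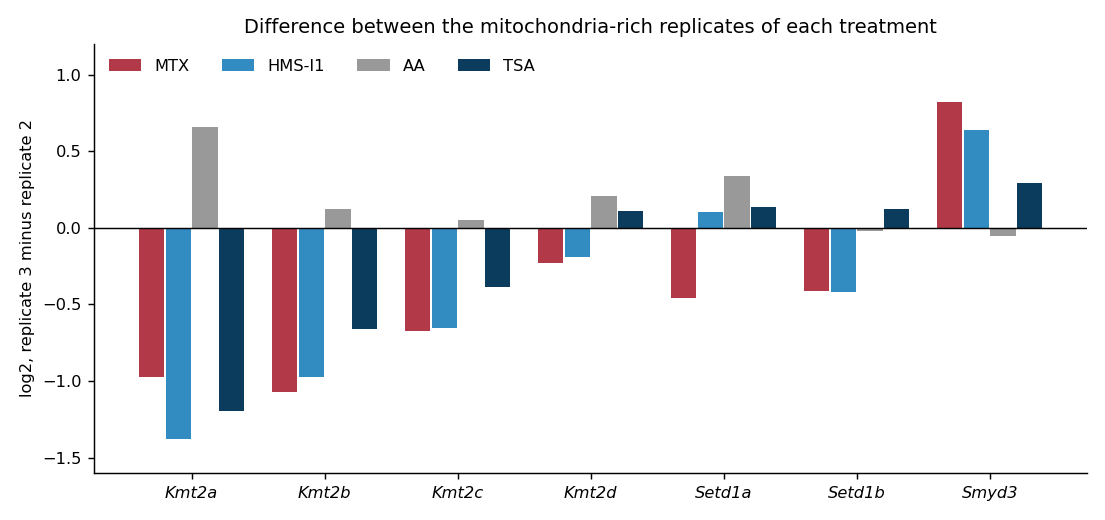
Log2 difference between replicates 3 and 2, the mitochondria-rich libraries of each treatment, for the 7 genes (bars, from left to right MTX, HMS-I1, AA and TSA). Kmt2a, Kmt2b and Kmt2c lie below 0 in MTX, HMS-I1 and TSA and above 0 in AA, and Smyd3 does the reverse.

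Across the 15 libraries, Setd1a and Setd1b followed each other most closely within the family (Pearson's r = 0.891), then Kmt2a and Setd1b (0.866) and Kmt2a and Setd1a (0.800), while Kmt2c and Setd1a had −0.22. With the mean of each library set removed, Setd1a and Setd1b fell to 0.339, and Kmt2a with Kmt2c (0.773) and Kmt2a with Kmt2b (0.748) were the closest pairs. These are descriptions over libraries that share sets and scaling. The genes with the most similar pattern among 15696 candidates, by r over the 15 libraries, were Rassf3 (0.951) and Trim8 (0.948) for Setd1a, Pramel1 (0.978) and the pseudogene Rps12-ps3 (0.971) for Setd1b, and Sos2 (0.979) and Cdc73 (0.968) for Kmt2a. For Kmt2b they were Rab2b (0.892) and Mettl14 (0.891), for Kmt2c Ep300 (0.937) and Atm (0.924), for Kmt2d Ticrr (0.918) and Fzd6 (0.866), and for Smyd3 Fthl17c (0.851) and Slc35e4 (0.848). With the set means removed, Sos2 (0.950), Rab2b (0.909), Ep300 (0.965) and Ticrr (0.895) were still the nearest to Kmt2a, Kmt2b, Kmt2c and Kmt2d, whereas Setd1a, Setd1b and Smyd3 had other neighbours.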

How the data were processed

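RNA of 15 whole-testis libraries, 3 in each of 5 groups taken from the sample titles, was measured by sequencing. The deposited file holds a signal per gene and library, normalised counts that the authors made with Salmon 0.12.0 and DESeq2 1.34.0 (and FastQC 0.11.9) on the build GRCm39, per the submitters' processing notes. Whether strand was used in counting is not stated. No more than 10.9% of low values in a library lay within 0.02 of a whole multiple of its commonest value, so reads were not recovered, and no counting interval is given.

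Symbols were matched by Ensembl number to an annotation of GRCm38 (35825 of 36118 identifiers), also used for transcript lengths, with no coordinates carried over. Values were analysed as log2(normalised count + 1), on which scale changes of low genes are understated. Genes with a mean of at least 10 (17896) were fitted in limma 3.58.1 (R 4.3.3, lmFit and eBayes with trend), with the means of 5 groups and 10 residual degrees of freedom. Tests were two-sided and adjusted by Benjamini and Hochberg over all genes at 0.05. The fit was also run on simulated data with planted differences. These data held independent noise and no library sets, so they do not show how the tests behave with such sets. Library sets were split by the mean log2 value of 60 histone genes, at the midpoint of the range. Genes named are the 7 methyltransferase genes, those past the threshold and the 2 with the smallest F-test p of each list (not every value of these is printed), the 2 most correlated genes of each of the 7, and list genes on which the set comparison turns. The alternatives were pseudocounts of 0.5 and 5, no filter, 2 rescalings, a set term, a replicate block, both, quality weights, fits of 2 groups, each library left out and, chosen after seeing the data, fits within a set. The genes and lists were chosen with earlier results of these data known.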

Additional observations from a re-analysis of the deposited data

How the results depend on the processing

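Of the 28 member-level differences from Control, all kept their direction under pseudocounts of 0.5 and 5, no filter, the replicate block and fits of 2 groups. Rescaling to equal sums moved the median of all genes in TSA to 0.11 and quantile normalisation to 0.12. Kmt2b in MTX became −0.050 with equal sums, and Kmt2a in MTX 0.0050 after quantile normalisation. With the library set as a term, Kmt2b was −0.11 in MTX, Kmt2a −0.33 in HMS-I1, −0.036 in AA and −0.10 in TSA, and Kmt2d −0.034 in AA. With the set term and the replicate block together, Kmt2a was −0.70 in HMS-I1, −0.41 in AA and −0.47 in TSA, Kmt2b −0.42 in MTX, −0.058 in HMS-I1 and −0.28 in AA, Kmt2d −0.13 in AA, and Setd1b −0.076 in MTX, −0.22 in HMS-I1, −0.25 in AA and −0.23 in TSA. Setd1a stayed above Control in all these fits. Of 30 pairs of same-numbered replicates, 26 deviated together at a correlation over 0.1 and 4, all with Control replicate 2, did not (range −0.583 to 0.756). Replicate 1 was histone-rich in every group, and replicate 2 in Control alone, so this check cannot tell pairing from the library sets. Within the mitochondria-rich set, replicate 3 was below replicate 2 in MTX, HMS-I1 and TSA alike for 33.5% of tested genes. It was above for 36.8%. Those treatments thus shared a pattern by replicate number within that set, and its origin was not tested. Replicate numbers were not taken to pair samples in the main fit. With the block, 0 of the 7 genes were called, and Setd1a in TSA had 1.12 with a limma adjusted p of 0.247 (unadjusted 0.00871, and 0.0143 in AA and 0.0257 in HMS-I1).

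Quality weights called 4 of the 7 genes and 6645 of the 17896 genes tested in AA. They called 1 and 4234 in TSA, 2 and 5640 in the test of any difference, and 3092 genes over the pairs of treatments. In AA, Setd1a was 1.60 (limma adjusted p 0.00272), Setd1b 1.56 (0.00609), Kmt2a 1.14 (0.0198) and Smyd3 −0.58 (0.0275), and Setd1a in TSA was 1.84 (0.00827). The adjusted p of Setd1a over all alternatives ranged up to 1.00 in both. In MTX the weights gave Kmt2a 0.24 and Kmt2b −0.0039. The weights' estimation ended with a convergence warning, and the cause of these calls was not tested. Fits of 2 groups called 1 gene in MTX, 2 in AA and 1 in TSA. Within the mitochondria-rich libraries 7 genes were called in TSA, 6 in the test of any difference and 22 over the pairs, and within the histone-rich libraries 1 in MTX, none of them among the 7.

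Leaving out each library in turn called 0 of the 7 genes. Over all genes the counts ran from 0 to 1 in MTX, HMS-I1 and AA, 0 to 992 in TSA, 0 to 246 in the test of any difference and 0 to 1920 over the pairs, the highest without TSA replicate 1 (and, for MTX, HMS-I1 and AA, without Control replicate 1). Kmt2a ranged from −0.46 to 0.60 in MTX, −0.42 to 0.78 in HMS-I1, −0.022 to 1.12 in AA and −0.16 to 1.01 in TSA. Kmt2b ranged from −0.30 to 0.27 in MTX and −0.071 to 0.42 in AA, Kmt2c from −0.40 to 0.20 in MTX, −0.040 to 0.17 in AA and −0.18 to 0.018 in TSA, and Kmt2d from −0.53 to 0.36 in HMS-I1 and −0.030 to 0.28 in AA. Setd1b ranged from 0.25 to 1.28 in MTX, 0.11 to 1.27 in HMS-I1, 0.083 to 1.29 in AA and 0.10 to 1.19 in TSA. Smyd3 ranged from −0.48 to 0.17 in MTX, −0.39 to 0.080 in AA and −0.35 to 0.083 in TSA. Depth is unknown, and 3 libraries per group in 2 sets limit what could be called.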
